A study of Saccharomyces cerevisiae with 15 samples.

Results

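A set of 137 Saccharomyces cerevisiae genes had their highest mRNA level in cells that overproduced the RNA-binding protein Rbs1. They were picked by their values from 6600 counted genes in 15 RNA-seq libraries of 5 strains, 3 libraries each, and they made up 2.08% of all counted genes. The level was counts scaled to library size (CPM), a gene's read count divided by the total of its library and multiplied by 1000000. A gene entered the set when its lowest CPM in the 3 [RBS1] libraries exceeded the mean of each of the other strains, its [RBS1] mean was at least 1.3 times the highest of those means, and that mean was at least 5 CPM. RBS1 itself, PPH22, LEU2 and the HXT1 to HXT7 genes were left out by name, 10 genes of which 5 met the conditions. Of the remaining genes, 5443 reached 5 CPM in [RBS1], and the set held 2.52% of them. Every comparison of [RBS1] with another strain was used to choose the genes, so those values are a description and were not tested.

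The study sequenced poly(A) mRNA to ask how a defect in the assembly of RNA polymerase III, and its suppression, changed mRNA levels. All strains were MATa cells with SUP11, mutations in the marker genes HIS3, LEU2, LYS2, URA3 and ADE2, and rpc128-1007, a mutation in the gene of the enzyme's C128 subunit. In [RBS1] this mutant held RBS1 on the multicopy plasmid YEp181, and in [RBS1-R3H] it held the same plasmid with conserved residues of the RNA-binding R3H domain changed to alanine, an allele that does not suppress the growth defect. In [PRT1] it held PRT1, the gene of a subunit of translation initiation factor eIF3, on a 2-micron plasmid, rpc128-1007[-] held an empty vector, and the isogenic wt strain was the same mutant complemented by native RPC128 on the centromeric plasmid pRS316. The strains were grown overnight in selective medium, without uracil or leucine by plasmid, and then to the logarithmic phase in rich YPD with glucose, where the plasmids were not selected. The wt strain was thus a complemented mutant, and each suppressor was present in many copies. The 3 libraries of a strain are labelled as biological replicates.

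RNA polymerase III makes the tRNAs and 5S rRNA, and Rbs1 is an RNA-binding protein that supports assembly of the enzyme. Among the gene groups described here, early meiotic genes are kept off in growing haploid cells by the DNA-binding repressor Ume6. Phospholipid genes are switched on by the Ino2 and Ino4 pair when inositol is short and held down by Opi1.

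Total counts lay between 7365923 and 12164321, and between 7794547 and 11878873 in [RBS1]. RBS1 mRNA averaged 4591 ± 155 CPM in [RBS1], 2853 ± 811 in [RBS1-R3H], and 85.3 ± 11.7 in [PRT1], 97.8 ± 29.6 in rpc128-1007[-] and 91.5 ± 7.49 in wt (SD, n = 3 each). RET1, another name of RPC128, averaged 199 to 243 CPM in the 4 mutant strains and 461 in wt. PPH22, a neighbour of RBS1, averaged 707 CPM in [RBS1] and 558 in [RBS1-R3H], against 62.9 to 72.5 in the other strains. LEU2 averaged 2492 CPM in [RBS1] and 3590 in [RBS1-R3H], against 381 to 772 in the other strains. The part of PPH22 and LEU2 in the levels of the members was not tested. All 7 MATa marker genes were counted in every strain, among them STE2, the alpha-factor receptor of MATa cells, which averaged 377 to 674 CPM. STE2 was highest in [RBS1]. MFA1, MFA2, AGA2 and BAR1 averaged 123, 178, 56.0 and 188 CPM in [RBS1], below 218, 239, 64.1 and 201 in wt. STE6 and ASG7 averaged 305 and 8.63 CPM in [RBS1], against 279 and 8.60 in wt. MATalpha genes are given below, and the cell type was not tested. Replicate 2 of [RBS1] and replicate 2 of rpc128-1007[-] were low in very short mRNAs, with 26.9 CPM of the pheromone gene MFA1 in [RBS1] replicate 2, against 174 and 167 in replicates 1 and 3, and 50.9 in rpc128-1007[-] replicate 2, against 276 and 228. Among members under 1000 bases, [RBS1] replicate 2 stood at a median of 0.907 times the mean of replicates 1 and 3 (60 genes), and among longer members at 1.01 times (76 genes). Without [RBS1] replicate 2 the rule returned 194 genes, 118 of them among the 137.

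Whole chromosomes also stood apart in strains other than [RBS1]. The median gene of chromosome VIII lay at 1.90, 1.87 and 1.92 times its wt mean in the 3 [PRT1] libraries, and the median gene of chromosome XI at 1.64, 1.21 and 1.36 times in rpc128-1007[-]. Chromosome I in rpc128-1007[-] lay at 0.950, 1.16 and 1.19 times, and chromosome VIII at 0.987, 1.16 and 1.22 times. On these 3 chromosomes the [RBS1] libraries lay between 0.972 and 1.05, and on the other 13 chromosomes the medians were 0.983 to 1.05 in [RBS1], 0.864 to 0.955 in [RBS1-R3H], 0.938 to 0.996 in [PRT1], 0.914 to 0.979 in rpc128-1007[-] and 0.969 to 1.04 in wt. The copy number of DNA was not measured, and its part in any result was not tested. Since the rule set [RBS1] against the highest other strain, a gene on chromosome VIII or XI had to exceed a level that was itself raised with its chromosome. Only 4 of 630 genes on chromosomes I, VIII and XI were members (0.635%), namely NAM8, YKR015C, GEX2 and MCH2, against 133 of 4813 genes on the others (2.76%). When each library was rescaled by chromosome, the rule returned 105 genes, 95 of them among the 137 and 14 of them on those 3 chromosomes.

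**Figure D1:**
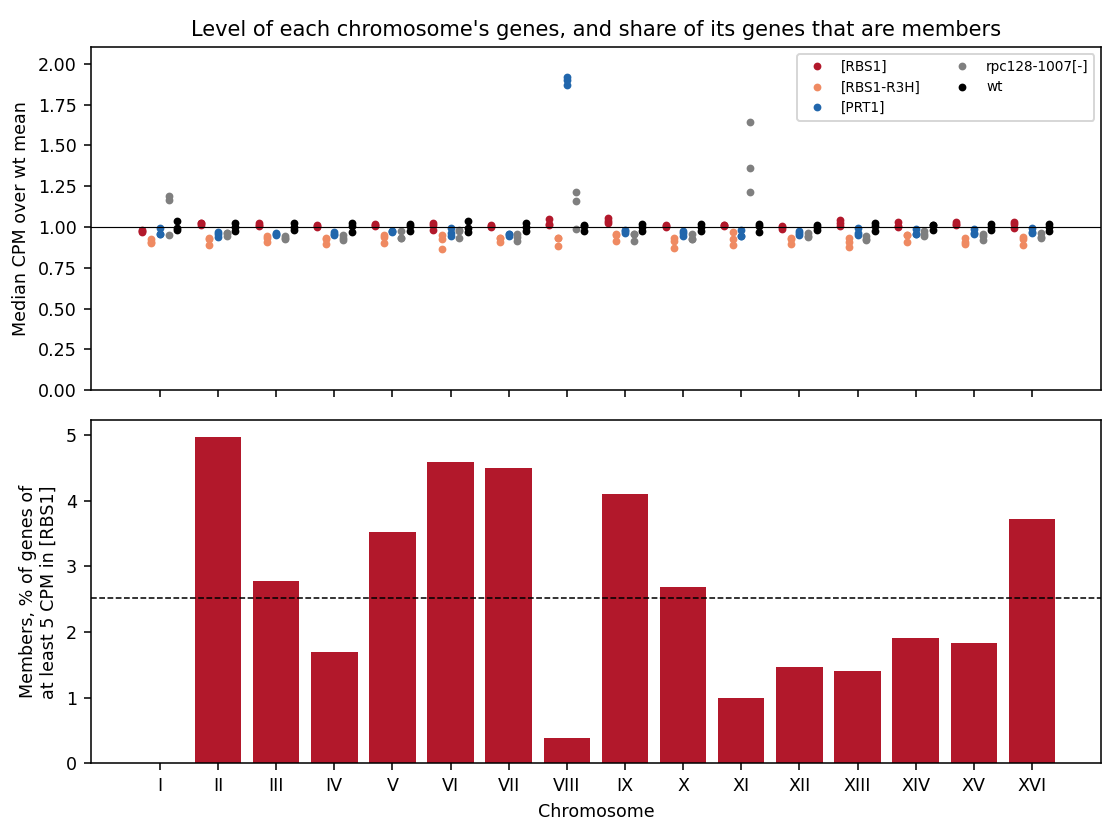
Top, the median over a chromosome's genes of CPM divided by the wt mean, 1 point per library for the 5 strains. Bottom, members as a percentage of each chromosome's genes with at least 5 CPM in [RBS1], with the 2.52% of all such genes as a dashed line. [PRT1] libraries sit near 1.9 on chromosome VIII, and members are 0.392% of its genes against 4.97% on chromosome II.

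Most members exceeded the next strain by little. The ratio of the [RBS1] mean to the highest mean of another strain ran from 1.3004 to 4.30 with a median of 1.43, against 0.922 over the 5443 genes. It was at least 2 for 7 members, at least 1.5 for 43, and between 1.3 and 1.4 for 52. All 3 [RBS1] libraries lay above all 12 other libraries for 112 members (81.8%), against 354 of the 5443 genes, or 6.50%, a difference that the rule itself makes. The median member stood at 1.68 times [RBS1-R3H], 1.55 times [PRT1], 1.68 times rpc128-1007[-] and 1.56 times wt, where the median gene stood at 1.0997, 1.04, 1.05 and 1.02 times. With scaling by library totals the median gene was shifted against [RBS1-R3H] by 0.14 on the log2 scale. With the trimmed mean of M-values (TMM), which is built to bring typical genes to the same level, this shift was -0.01. The origin of the shift was not tested. With TMM the members' median log2 difference against [RBS1-R3H] was 0.60 in place of 0.75, and 98 genes met the rule.

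**Figure D2:**
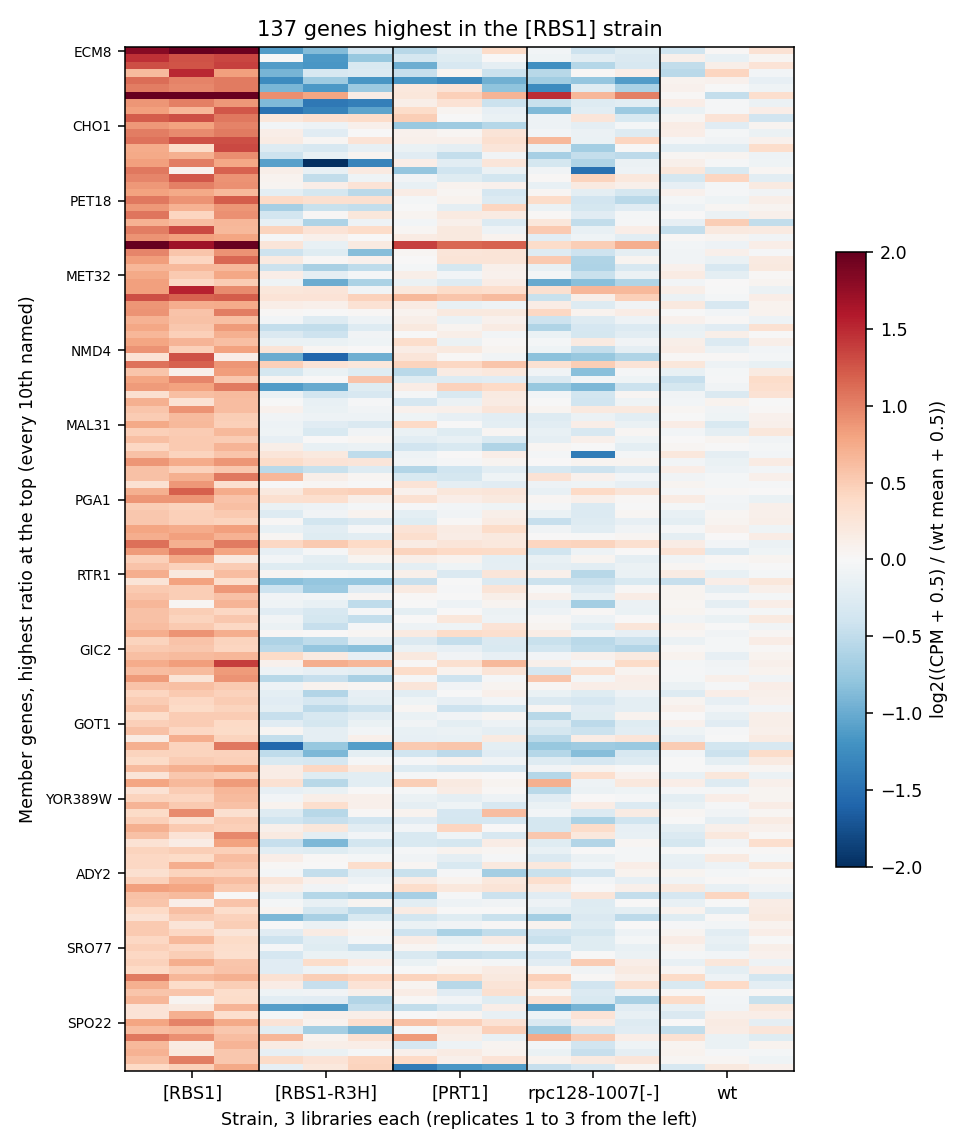
Each of the 137 members is a row, ordered by its ratio to the next strain, and each library a column, grouped by strain from [RBS1] on the left to wt on the right. Colour gives the log2 of CPM + 0.5 over the gene's wt mean + 0.5; every [RBS1] cell is above the wt mean, which the rule fixes.

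The strain next below [RBS1] was wt for 50 members, [PRT1] for 47, [RBS1-R3H] for 26 and rpc128-1007[-] for 14. Over the 5443 genes the highest of those 4 strains was wt in 37.2%, [PRT1] in 29.7%, [RBS1-R3H] in 17.9% and rpc128-1007[-] in 15.2%, against 36.5, 34.3, 19.0 and 10.2% of members. The lowest strain was [RBS1-R3H] for 54 members (39.4%, against 41.7% of all genes) and rpc128-1007[-] for 40 (29.2%, against 20.2%). Members were counted by fewer reads than most genes. Their median [RBS1] level, not corrected for length, was 32.9 CPM against 63.1, and 62.8% of members lay under 50 CPM against 41.6% of genes. The lowest count of a member in an [RBS1] library was 33.

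The rule was repeated with 1 replicate number of every strain held back. It then chose 152, 173 and 152 genes without numbers 1, 2 and 3, of which 119, 111 and 118 were among the 137. The shares below are a description of those chosen genes. They are not shares of the 137, which all 15 libraries helped to choose. In the held-back libraries [RBS1] was the highest of the 5 strains for 93.4, 74.6 and 90.1% of the chosen genes, against 27.7, 36.2 and 25.5% of all genes. The ratio of 1.3 was reached again by 56.6, 42.2 and 53.9%, against 3.25, 4.40 and 2.73% of all genes. The lowest of these shares came with replicate 2, the number whose [RBS1] and rpc128-1007[-] libraries were low in short mRNAs.

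At the edge of the rule stood OPI3, CWC25 and LTO1 with ratios of 1.3004, 1.3006 and 1.309. OPI3 makes phosphatidylcholine, CWC25 is a splicing factor and LTO1 acts in maturation of an iron-sulfur protein. Just outside, with the other conditions met, were MIY3, RKM5 and MSH4 at 1.298, 1.298 and 1.297. RKM5 methylates a ribosomal protein, and MSH4 acts in meiotic crossing over.

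The member that stood farthest from the other strains was ECM8, a gene of unknown function. ECM8 had 18.02, 23.3 and 19.9 CPM in [RBS1], against 1.905, 2.36 and 3.54 in [RBS1-R3H], 3.05, 4.15 and 6.24 in [PRT1], 4.54, 3.45 and 3.95 in rpc128-1007[-] and 3.47, 4.85 and 5.92 in wt. Every [RBS1] library lay far above the other 12, and the ratio of means to the next strain was 4.30. YBR076C-A, which the RefSeq annotation does not hold, had 32.7, 16.4 and 35.7 CPM in [RBS1], against 16.7, 13.9 and 17.6 in [RBS1-R3H], 8.84, 11.6 and 14.3 in [PRT1], 14.6, 5.18 and 14.3 in rpc128-1007[-] and 18.1, 12.4 and 15.8 in wt. Its groups overlapped, and it was not a member with TMM scaling. SLM4, a subunit of a vacuolar complex that controls growth signalling, lies next to ECM8 and was also a member, at a ratio of 1.31. With TMM scaling SLM4 was not a member.

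Other members far from the next strain were genes of the cell surface and of unknown function. SAG1, the alpha-agglutinin that lets MATalpha cells stick to MATa cells, had 61.2, 57.7 and 61.8 CPM in [RBS1], against 32.7, 25.3 and 29.8 in [RBS1-R3H], 31.6, 30.7 and 35.7 in [PRT1], 28.5, 27.5 and 24.8 in rpc128-1007[-] and 32.8, 28.95 and 27.4 in wt. The groups did not overlap, with a ratio of 1.84. The MATalpha pheromone gene MF(ALPHA)1, which fell short of the 5 CPM and is given after its values were seen, had 2.53, 2.18 and 2.74 CPM in [RBS1], against 0 to 0.950 CPM in the other 12 libraries. The other MATalpha genes did not follow: STE3 averaged 16.8 CPM in [RBS1] and 17.1 in rpc128-1007[-], and MF(ALPHA)2 averaged 10.4 in [RBS1] and 11.4 in wt.

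YKR015C, of unknown function, had 29.8, 28.6 and 27.1 CPM in [RBS1], against 12.7, 11.502 and 7.19 in [RBS1-R3H], 7.58, 9.099 and 10.6 in [PRT1], 18.7, 10.4 and 13.4 in rpc128-1007[-] and 6.499, 4.49 and 8.24 in wt. It was highest after [RBS1] in rpc128-1007[-], the strain in which its chromosome, XI, was raised. GEX2, a glutathione exchanger of the vacuole and plasma membrane, had 24.8, 28.7 and 24.1 CPM in [RBS1], against 6.24, 2.58 and 5.26 in [RBS1-R3H], 15.3, 11.97 and 16.6 in [PRT1], 10.8, 8.96 and 12.7 in rpc128-1007[-] and 14.9, 13.7 and 13.002 in wt. It shared 77.6% of its 25-base stretches with GEX1, so reads could not be assigned to it with certainty. YFL040W, a putative transporter, had 10.6, 11.55 and 10.5 CPM in [RBS1], against 2.75, 1.72 and 1.82 in [RBS1-R3H], 5.999, 6.82 and 3.94 in [PRT1], 3.89, 4.52 and 4.702 in rpc128-1007[-] and 6.07, 5.44 and 5.02 in wt. For all 3 genes the [RBS1] libraries lay above every other library, and GEX2 and YFL040W were lowest in [RBS1-R3H].

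ZRT1, the high-affinity zinc transporter, had 139, 166 and 132 CPM in [RBS1], against 73.6, 50.1 and 66.1 in [RBS1-R3H], 67.1, 59.2 and 54.7 in [PRT1], 71.6, 95.9 and 81.3 in rpc128-1007[-] and 55.03, 95.02 and 61.02 in wt. SDH2, the iron-sulfur subunit of succinate dehydrogenase, had 117, 89.5 and 174 CPM in [RBS1], against 58.2, 55.8 and 61.8 in [RBS1-R3H], 63.1, 61.3 and 82.3 in [PRT1], 63.5, 43.1 and 69.2 in rpc128-1007[-] and 60.01, 60.2 and 88.6 in wt. In both the [RBS1] libraries were above the rest, though for SDH2 the lowest of them barely exceeded wt replicate 3. CLB2, the main mitotic cyclin, had 149.7, 145 and 134 CPM in [RBS1], against 74.9, 67.1 and 58.8 in [RBS1-R3H], 94.8, 87.9 and 67.7 in [PRT1], 87.9, 74.6 and 67.2 in rpc128-1007[-] and 91.1, 83.7 and 81.7 in wt. Its relative CLB1 was a member too, at 72.3 ± 5.38 CPM in [RBS1] and a ratio of 1.35, but not with TMM scaling. They were the only members of 20 genes listed for mitosis, beside 2.52% of all genes of at least 5 CPM.

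The remaining members among the 25 with the highest ratios were PET18 (1.67), a gene with weak similarity to thiamine genes, GSM1 (1.66), a zinc cluster protein, PRM3 (1.64), which fuses nuclear envelopes in mating, and SDD1 (1.62), of unknown function. PRM3 was the sole member of 23 pheromone response genes that reached 5 CPM, and SAG1 of 3 such MATalpha genes. Members were 2.52% of all genes that reached 5 CPM.

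**Figure D3:**
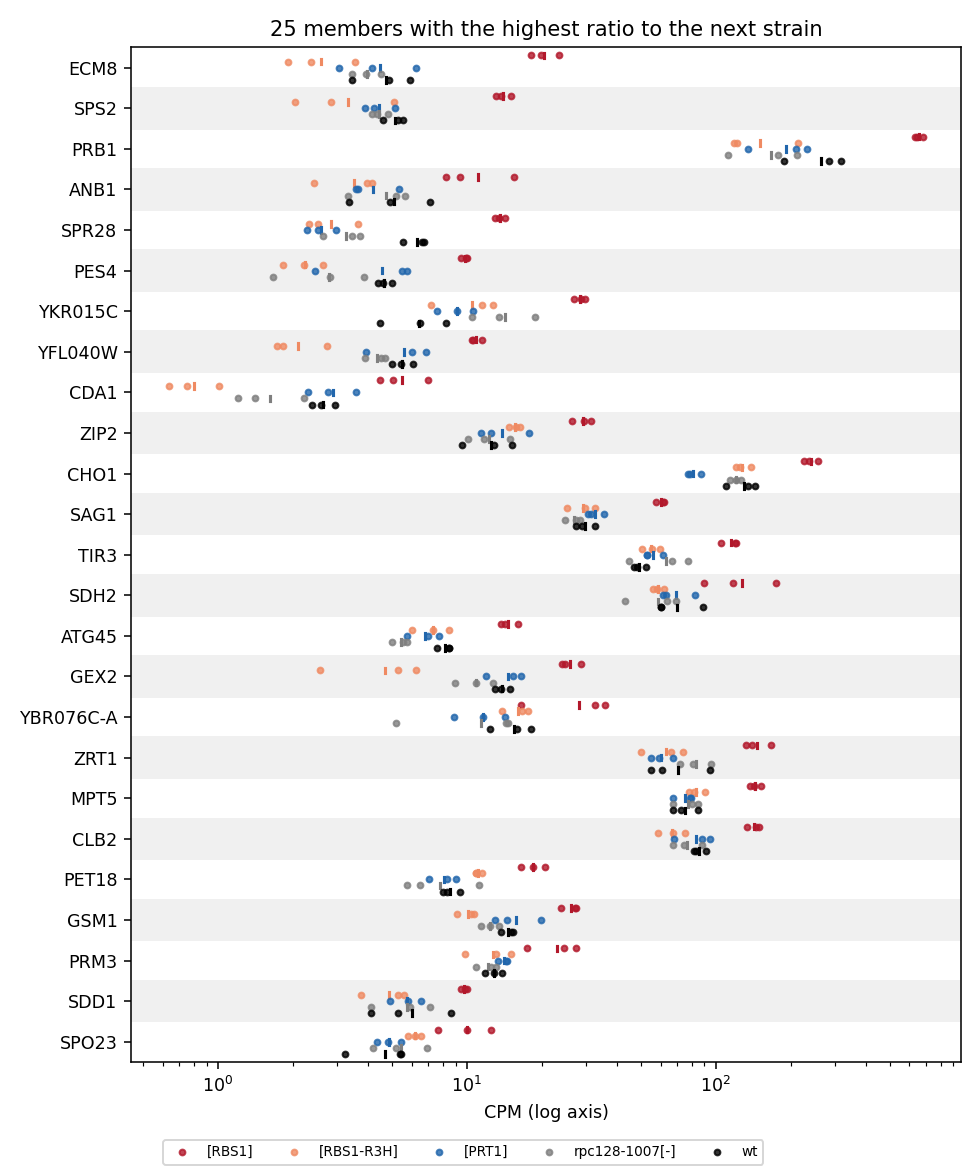
CPM on a log axis for the 25 members with the highest ratio to the next strain, with 1 point per library and a tick at each strain's mean, [RBS1] at the top of each band and wt at the bottom. The [RBS1] points lie to the right of all others for each gene but YBR076C-A.

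Members included RNA-binding proteins that control mRNA translation and decay. Grouped after their values were seen, by words in the RefSeq descriptions, they were 6 of 136 members with a description (4.41%), against 101 of 5407 genes (1.87%). All 6 had [RBS1] libraries above every other library, as did 81.8% of all members. WHI3 among them was not a member with TMM scaling. MPT5, a Pumilio protein that recruits the deadenylase to mRNA 3′ ends, had 138, 151 and 142 CPM in [RBS1], against 78.1, 82.02 and 90.7 in [RBS1-R3H], 67.6, 78.9 and 79.8 in [PRT1], 67.4, 84.8 and 80.5 in rpc128-1007[-] and 67.05, 72.7 and 85.1 in wt. NGR1, which speeds decay of the porin mRNA, had 191, 172 and 189 CPM in [RBS1], against 133, 124 and 121 in [RBS1-R3H], 98.1, 101 and 107 in [PRT1], 103, 106 and 107 in rpc128-1007[-] and 99.1, 93.8 and 115 in wt. The levels of NGR1 in [RBS1-R3H] were also above those of [PRT1], rpc128-1007[-] and wt. MRN1, which binds cell wall mRNAs, WHI3, which holds back the mRNA of the cyclin CLN3, and PES4, which acts on meiotic mRNAs, had ratios of 1.47, 1.35 and 2.11. The sixth, NAM8, a U1 snRNP protein needed for splicing of meiotic transcripts, had 147, 119 and 147 CPM in [RBS1], against 43.2, 32.5 and 41.3 in [RBS1-R3H], 93.99, 81.3 and 82.4 in [PRT1], 47.1, 50.97 and 60.6 in rpc128-1007[-] and 34.99, 33.8 and 39.9 in wt. NAM8 lay on chromosome VIII, and its 3 [PRT1] libraries were above the wt, rpc128-1007[-] and [RBS1-R3H] libraries.

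Genes of meiosis and spore formation were the largest described group. The words meiosis, sporulation, spore or synaptonemal stood in the descriptions of 20 of 136 members (14.7%), against 284 of 5407 genes (5.25%), whose median ratio was 0.950. The words were chosen after the values were seen, and the strains are haploid cells in rich medium. Their [RBS1] means ran from 5.501 to 654 CPM with a median of 21.6, and 18 of the 20 did not overlap between [RBS1] and the rest, a condition that 81.8% of all members met and that the rule itself favours. Relative to wt the median member of the group stood at 1.81 in [RBS1], 0.929 in [RBS1-R3H], 1.02 in [PRT1] and 0.916 in rpc128-1007[-].

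SPS2, which organizes the glucan layer of the spore wall, had 14.98, 13.1 and 13.7 CPM in [RBS1], against 5.08, 2.04 and 2.83 in [RBS1-R3H], 3.89, 4.25 and 5.16 in [PRT1], 4.81, 4.36 and 4.14 in rpc128-1007[-] and 5.52, 4.61 and 5.28 in wt. SPR28, the septin of sporulating cells, had 14.2, 12.96 and 13.5 CPM in [RBS1], against 2.33, 3.65 and 2.53 in [RBS1-R3H], 2.53, 2.27 and 2.99 in [PRT1], 3.704, 3.45 and 2.63 in rpc128-1007[-] and 6.61, 6.74 and 5.54 in wt. SPR28 was second highest in wt, whose libraries lay above those of [RBS1-R3H], [PRT1] and rpc128-1007[-]. CDA1, the chitin deacetylase of the spore wall, had 5.05, 4.49 and 6.96 CPM in [RBS1], against 0.635, 0.752 and 1.01 in [RBS1-R3H], 3.58, 2.77 and 2.31 in [PRT1], 1.204, 2.22 and 1.41 in rpc128-1007[-] and 2.38, 2.5999 and 2.96 in wt. Its [RBS1-R3H] libraries were the lowest of the series. ZIP2, which initiates the synaptonemal complex between homologous chromosomes, had 29.6, 31.6 and 26.5 CPM in [RBS1], against 14.7, 15.8 and 16.3 in [RBS1-R3H], 17.8, 12.5 and 11.4 in [PRT1], 11.7, 14.96 and 10.1 in rpc128-1007[-] and 12.9, 15.2 and 9.53 in wt. PES4 had 9.93, 9.49 and 10.04 CPM in [RBS1], against 2.22, 1.83 and 2.63 in [RBS1-R3H], 5.47, 5.74 and 2.44 in [PRT1], 1.67, 3.86 and 2.82 in rpc128-1007[-] and 4.98, 4.61 and 4.38 in wt. None of these 5 genes overlapped between [RBS1] and the other strains.

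PRB1, the vacuolar proteinase B, needed for protein turnover in sporulation and starvation, had 646, 634 and 683 CPM in [RBS1], against 121, 118 and 214 in [RBS1-R3H], 134, 210.2 and 232 in [PRT1], 112, 178 and 212 in rpc128-1007[-] and 188, 285 and 319 in wt. The [RBS1] libraries lay close together and far above the other 12, with a ratio of 2.48. The neighbours HOP1 and SPO22, whose proteins build the axis and the synapsis of meiotic chromosomes, are divergently transcribed. HOP1 had 15.3, 15.5 and 14.4 CPM in [RBS1], against 8.36, 5.91 and 4.96 in [RBS1-R3H], 9.58, 10.98 and 13.8 in [PRT1], 5.74, 7.48 and 8.28 in rpc128-1007[-] and 6.82, 10.9 and 11.6 in wt. SPO22 had 43.4, 50.2 and 42.7 CPM in [RBS1], against 30.3, 26.3 and 31.8 in [RBS1-R3H], 38.2, 34.8 and 30.5 in [PRT1], 20.3, 27.7 and 20.8 in rpc128-1007[-] and 25.02, 28.01 and 22.01 in wt. Both were highest after [RBS1] in [PRT1], and neither was a member with TMM scaling. SPO75, named next, was not a member with TMM scaling either. Others of the members with the words had ratios from 1.36 to 1.79: ATG45, the receptor for glycogen autophagy, SPO23, SPO74, SPO75 and GAS2 of spore formation, BNS1 of mitotic exit, SHU2 of recombination, IME4, the mRNA methyltransferase of meiosis, CDC55 of protein phosphatase 2A, and ADY2, an acetate transporter.

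**Figure D4:**
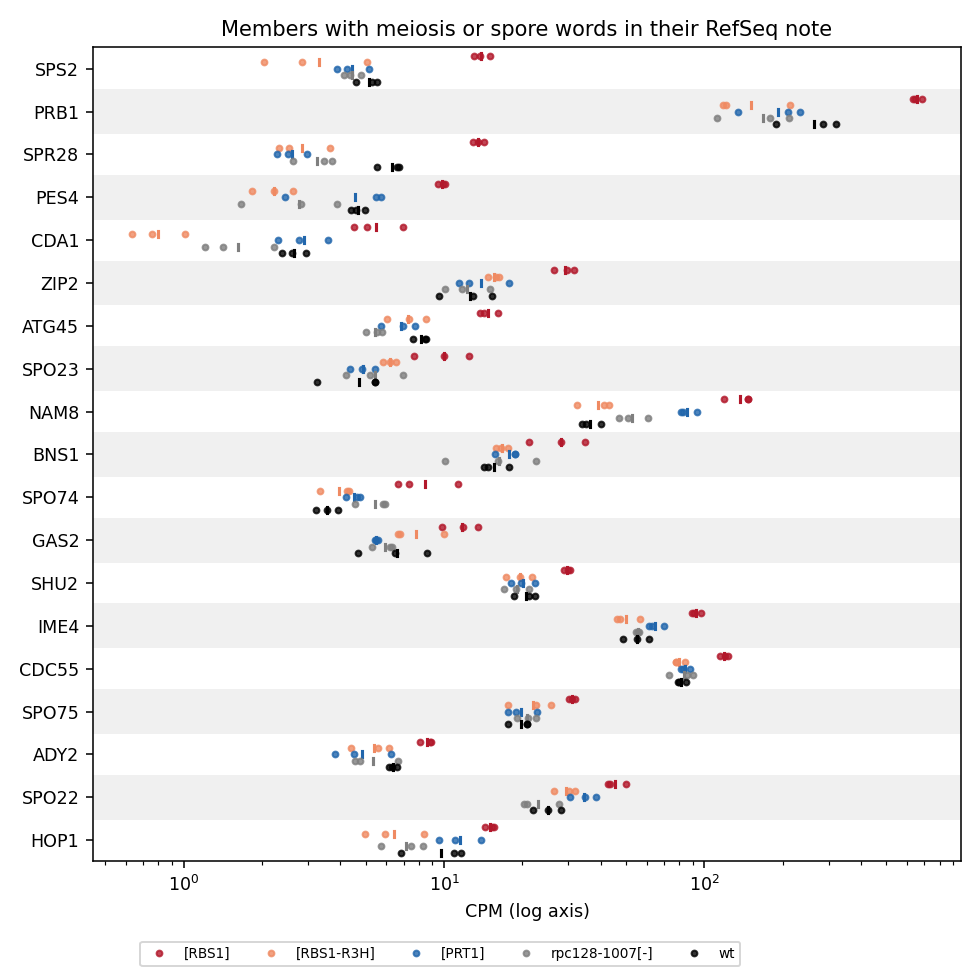
CPM on a log axis for 19 of the 20 members with meiosis or spore words in their description, 1 point per library and a tick at each mean, [RBS1] at the top of each band and wt at the bottom. [RBS1] points lie to the right of all others except in BNS1 and GAS2.

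Ume6 binds a short GC-rich sequence, and a match to its core AGCCGCC, on either strand, was looked for in the 500 bases before each start codon. It was present for 12 of 136 members (8.82%) and 209 of 5407 genes (3.87%), and the median ratio of those 209 genes was 0.929. Among members with the meiosis words it was present for 5 of 20 (25.0%), against 28 of all 284 genes with the words (9.86%). A match is a description of the letters and not a bound site. The windows of those 5 genes, and of the inositol genes INO1 and INO4, are shown because these members carry the match. Each runs 5′ to 3′ on the gene's strand in genome build R64, with AGCCGCC or its reverse complement in capitals and 8 bases on each side. They lie at chrII:718888-718910 (SPO23, + strand), chrIII:133437-133459 and chrIII:133354-133376 (ADY2, - strand), chrVII:142006-142028 (IME4, + strand), chrIX:226423-226445 (HOP1, + strand), chrIX:226064-226086 (SPO22, - strand), chrX:136177-136199 (INO1, - strand) and chrXV:111903-111925 (INO4, - strand). The matches lie 131 to 137, 321 to 327, 238 to 244, 226 to 232, 165 to 171, 118 to 124, 252 to 258 and 25 to 31 bases before the start codons.
SPO23: gttttttgGGCGGCTgcatactg
ADY2, far: tgcggttgGGCGGCTatttcggt
ADY2, near: gcgggttgGGCGGCTatggcgcc
IME4: cgtctttaGGCGGCTtttggcgt
HOP1: ttaacctgGGCGGCTaaattgta
SPO22: caaacttcGGCGGCTaattgcaa
INO1: tgcgcttcGGCGGCTaaatgcgg
INO4: gttaagagGGCGGCTtgaactaa

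The HOP1 match is also 477 to 483 bases before SPO22, and the INO4 match lies 185 to 191 bases before its divergent neighbour and fellow member YOL107W. The other members with a match were PRX1, SDD1, YOR019W and YPR027C. The top genes SPS2, SPR28, PES4, CDA1, ZIP2 and PRB1 held none in the window. Of 26 motifs searched, the largest differences between members and all genes were 75 against 65.3% for CTTCC (Gcr1), 67.6 against 60.01% for TATAAA (the TATA box), 20.6 against 28.1% for GATGAG (a motif of ribosome assembly genes) and 6.62 against 13.02% for TGACTC (Gcn4).

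Phospholipid, inositol and fatty acid genes formed the pathway with the most members, by count, of any list used. Of its 24 genes 7 were members, beside 2.52% of all genes of at least 5 CPM. The list of DAN, TIR and PAU genes held 5 members of 17 genes, and that of alternative sugar use 5 of 19. The median ratio of the phospholipid list was 1.14 against 0.922 over all genes. CHO1, the phosphatidylserine synthase at the head of the pathway, had 236, 227 and 258 CPM in [RBS1], against 125, 120.4 and 138 in [RBS1-R3H], 77.04, 79.02 and 87.02 in [PRT1], 121, 114 and 126 in rpc128-1007[-] and 144, 110.1 and 134 in wt. CHO1 was thus highest in [RBS1] and lowest in [PRT1], with no overlap of either group with the rest. OPI3, which finishes phosphatidylcholine from phosphatidylethanolamine, had 74.2, 78.5 and 95.2 CPM in [RBS1], against 49.95, 64.6 and 76.1 in [RBS1-R3H], 20.8, 24.8 and 25.9 in [PRT1], 40.6, 44.6 and 57.4 in rpc128-1007[-] and 44.6, 64.1 and 59.5 in wt. The [RBS1] and [RBS1-R3H] libraries of OPI3 overlapped, and the [PRT1] libraries were the lowest.

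INO1, which makes inositol phosphate from glucose 6-phosphate, had 14.98, 22.1 and 15.98 CPM in [RBS1], against 6.77, 7.09 and 7.09 in [RBS1-R3H], 8.84, 12.4 and 10.05 in [PRT1], 9.07, 9.04 and 9.97 in rpc128-1007[-] and 8.88, 13.7 and 14.7 in wt. INO4, the activator itself, had 31.4, 28.7 and 30.1 CPM in [RBS1], against 14.1, 15.05 and 17.2 in [RBS1-R3H], 13.6, 15.6 and 17.8 in [PRT1], 16.4, 15.4 and 17.02 in rpc128-1007[-] and 22.9, 19.3 and 19.95 in wt. Both stood above all other libraries in [RBS1], and INO1 was lowest in [RBS1-R3H]. ITR1, the inositol transporter, had 404, 425 and 457 CPM in [RBS1], against 289.9, 348 and 296 in [RBS1-R3H], 219, 206 and 206 in [PRT1], 248, 272 and 260.0 in rpc128-1007[-] and 258, 257 and 267 in wt. It was second highest in [RBS1-R3H] and was not a member with TMM scaling. ACC1, which makes malonyl-CoA for fatty acids, had 886, 935 and 838 CPM in [RBS1], against 526, 606 and 605 in [RBS1-R3H], 535, 474 and 486 in [PRT1], 525, 658 and 609 in rpc128-1007[-] and 646, 641 and 701 in wt. OLE1, the fatty acid desaturase, had 1647, 1985 and 1756 CPM in [RBS1], against 1026, 1543 and 1318 in [RBS1-R3H], 1088, 1219.8 and 1168 in [PRT1], 1018, 1699 and 1315 in rpc128-1007[-] and 1075, 1403 and 1109 in wt. The OLE1 groups overlapped, and OLE1 and OPI3 were not members with TMM scaling.

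**Figure D5:**
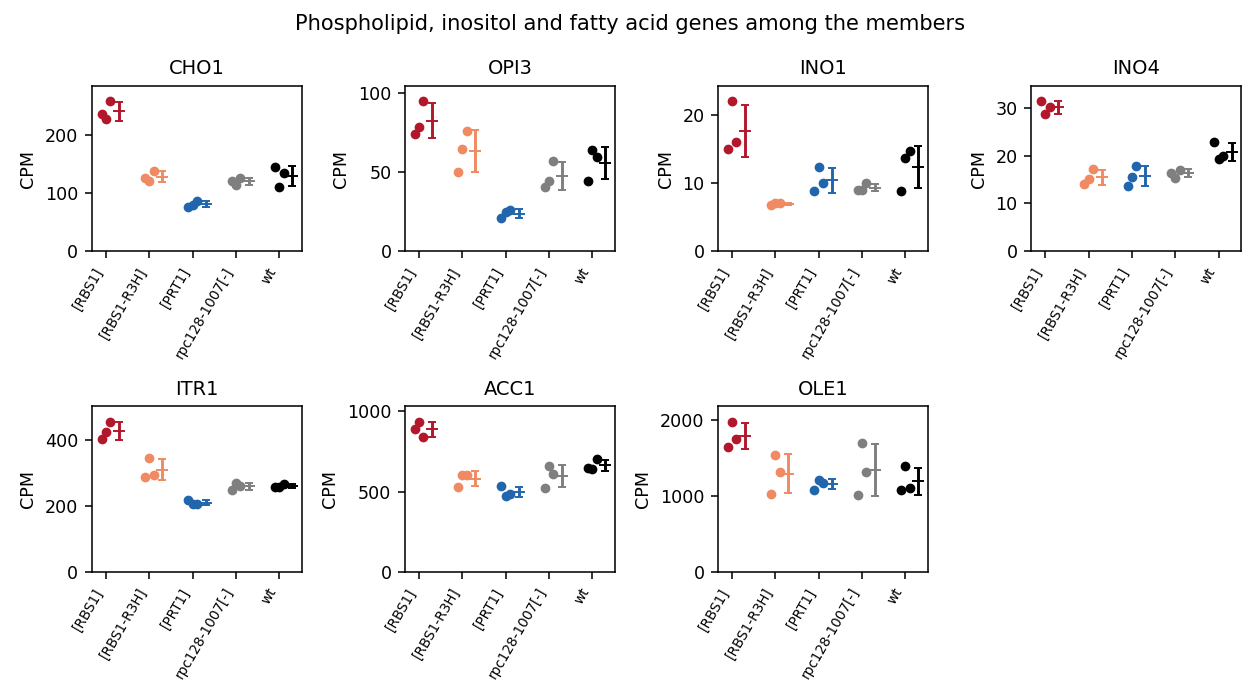
CPM of the 7 phospholipid, inositol and fatty acid members in each library, with the mean and SD of 3 libraries beside the points, strains from [RBS1] on the left to wt on the right. CHO1 and OPI3 are lowest in [PRT1], at 77.0 to 87.0 and 20.8 to 25.9 CPM.

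The core of the Ino2 and Ino4 site, CATGTG on either strand, was in the 500 bases before 22 of 136 members (16.2%) and 704 of 5407 genes (13.02%). It was present before 6 of the 7 phospholipid members and not before OLE1, and was not counted for the list's other genes. The windows nearest the start codon are shown for those 6, in build R64 on the gene's strand, with the core in capitals and 8 bases on each side. They lie on the - strand at chrV:208620-208641 (CHO1), chrX:573070-573091 (OPI3), chrX:136098-136119 (INO1), chrXV:111994-112015 (INO4), chrIV:1445675-1445696 (ITR1) and chrXIV:661703-661724 (ACC1). The cores lie 154 to 159, 143 to 148, 173 to 178, 116 to 121, 216 to 221 and 337 to 342 bases before the start codons.
CHO1: tgagctttCACATGgacccatc
OPI3: caaacccaCACATGcatcgttg
INO1: atttaattCACATGgagcagag
INO4: aaaatattCACATGtttttctc
ITR1: ccccaccgCATGTGaaaaaagc
ACC1: gatcggtgCATGTGtttataaa

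A second core lay farther out in OPI3 and INO1, and ITR1 held 3 in all. In INO1 the farther core, 238 to 243 bases before the start codon, is separated by 8 bases from the Ume6 match shown above.

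Of the DAN, TIR and PAU list, genes expressed without oxygen or in the cold, 5 of the 17 that reached 5 CPM were members. Over all genes of that level the share was 2.52%, and the list median was 1.16. Besides OLE1 the 5 members were ANB1, the anaerobic form of eIF5A, and 3 cell wall mannoproteins. TIR3 had 105, 120.0 and 121 CPM in [RBS1], against 55.2, 50.3 and 59.7 in [RBS1-R3H], 53.05, 53.01 and 61.4 in [PRT1], 77.5, 44.9 and 66.7 in rpc128-1007[-] and 48.3, 46.9 and 52.4 in wt. TIR2 had 21.1, 19.5 and 19.97 CPM in [RBS1], against 10.3, 10.2 and 11.7 in [RBS1-R3H], 13.4, 12.5 and 13.3 in [PRT1], 6.02, 9.13 and 11.9 in rpc128-1007[-] and 7.69, 8.15 and 9.27 in wt. In both the [RBS1] libraries lay above all others. TIR1 had 21.4, 42.9 and 19.3 CPM in [RBS1], against 8.57, 5.48 and 8.605 in [RBS1-R3H], 20.7, 17.7 and 16.6 in [PRT1], 9.72, 10.1 and 11.4 in rpc128-1007[-] and 17.8, 17.7 and 16.99 in wt. It overlapped between [RBS1] and [PRT1], replicate 2 of [RBS1] being the high one. ANB1 had 8.25, 15.5 and 9.36 CPM in [RBS1], against 2.43, 3.98 and 4.15 in [RBS1-R3H], 3.58, 5.34 and 3.67 in [PRT1], 3.33, 5.18 and 5.64 in rpc128-1007[-] and 3.36, 7.09 and 4.89 in wt, and it shared 10.7% of its 25-base stretches with HYP2, the aerobic form.

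Sugar genes other than the hexose transporters left out by name had 5 members among 19 genes of alternative sugar use, whose median ratio was 1.04, namely IMA5, MAL11, MAL12, MAL31 and MAL32. GAL2 was the sole member of 21 genes of glucose sensing and repression, whose median ratio was 0.886. Members were 2.52% of all genes of at least 5 CPM. MAL11 and MAL31, maltose permeases, averaged 21.7 ± 1.46 and 33.3 ± 3.28 CPM in [RBS1], with ratios of 1.53 and 1.47. MAL12 and MAL32, maltases, averaged 9.47 ± 0.897 and 9.90 ± 0.583 CPM, with ratios of 1.34 and 1.37. Neither of these maltase genes was a member with TMM scaling. Since MAL12 and MAL32 each share 91.3% of their 25-base stretches with other genes, mostly each other, their reads cannot be told apart. IMA5, an isomaltase, and GAL2, the galactose permease, averaged 14.5 ± 0.610 and 15.2 ± 1.47 CPM, with ratios of 1.54 and 1.403. IMA5, REE1, a regulator of enolase, and YJL218W, a putative acetyltransferase, are neighbours on chromosome X and all members. REE1 was not a member with TMM scaling. In all these sugar genes the [RBS1] libraries lay above the other 12, which the rule made so for 81.8% of all members.

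Members of other lists were few, beside the 2.52% that members made up of all genes of at least 5 CPM. FET3, the multicopper oxidase of iron uptake, had 803, 834 and 536 CPM in [RBS1], against 466, 361 and 342 in [RBS1-R3H], 339.5, 527 and 398 in [PRT1], 457, 632 and 385 in rpc128-1007[-] and 426, 718 and 462 in wt. Its groups overlapped, and it was the sole member of 29 iron genes, whose median ratio was 0.757. With TMM scaling FET3 was not a member. ZRT1 was the only member of 18 zinc and copper genes. THI7, the thiamine transporter of the plasma membrane, and THI74, a mitochondrial transporter repressed by thiamine, averaged 95.6 ± 8.75 and 38.6 ± 2.21 CPM in [RBS1], with ratios of 1.46 and 1.44. HAL1, of salt tolerance, averaged 28.7 ± 2.54 CPM with a ratio of 1.53. NDI1 and SDH2 were the members of 45 respiratory chain genes, and KGD1 and ADY2 of 29 genes of the citrate and glyoxylate cycles. GAS2, a glucanosyltransferase of the spore wall, was the only member of 41 cell wall genes. PMA1, the proton pump of the plasma membrane and the member with the most reads, had 6674, 6948 and 6819.6 CPM in [RBS1], against 4246, 4145 and 4458 in [RBS1-R3H], 4857, 5153 and 5036 in [PRT1], 4459, 4935 and 4767 in rpc128-1007[-] and 4878, 4880.0 and 4991 in wt. Its groups did not overlap, and with TMM scaling it was not a member.

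No member came from 85 genes of amino acid biosynthesis, whose median ratio was 0.421, from 26 phosphate genes (0.563), 31 heat shock genes (0.759), 21 glycolysis genes (0.885) or 27 ergosterol genes (0.888). None came from 23 genes of RNA polymerase III and its factors (0.953), 31 of translation initiation (1.01) or 85 of ribosome assembly (1.06). Members were 2.52% of the 5443 genes, and at that share lists of these sizes would hold few members or none.

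Position and description were looked at after the values were seen. Within 30000 bases of an end lay 20 members (14.7%), against 281 of 5407 genes (5.197%), and 24 members (17.6%) were of unknown function, against 546 genes (10.1%). In all, 9 pairs of adjacent genes were both members, among them BTT1 with MET32, ROG3 with PES4, YGL193C with IME4 and MAL11 with MAL12. FEX2, a fluoride exporter, and YOR389W and YPL277C, of unknown function, shared 87.1, 58.2 and 57.2% of their 25-base stretches with other genes and are uncertain for that reason.

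Whether the members also differed among the 4 strains other than [RBS1] was tested in 5 comparisons that left the [RBS1] libraries out. The rule had used the means of these strains as an upper bound, so a gene raised in any of them was less likely to be a member. The shares of members called are therefore not free of the rule, and their distance from the shares of all genes is a description. A fit over 5834 genes with edgeR's quasi-likelihood test and Benjamini-Hochberg adjustment over all of them, at 0.05, included all 137 members. Comparisons that share rpc128-1007[-] or wt are not independent.

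In [RBS1-R3H] against rpc128-1007[-], the comparison of the inactive allele with the empty vector, 3 members rose, against 3.84% of all genes, and 4 fell, against 6.60%. Outside chromosomes I, VIII and XI, 338 of 5142 genes were called, 218 of them higher, and 4 of 133 members. The members' median log2 difference was 0.02, against -0.01 over all genes. GEX2 fell by 1.17 ± 0.25 on the log2 scale (adjusted p = 0.0112), YFL040W by 1.03 ± 0.26 (adjusted p = 0.0276), MCH2, a monocarboxylate permease homologue, by 0.84 ± 0.22 (adjusted p = 0.0279) and NAM8 by 0.41 ± 0.11 (adjusted p = 0.0370), where ± gives the standard error here and below. GEX2 and MCH2 lie on chromosome XI, whose median difference was -0.56 in this comparison, and NAM8 on chromosome VIII, at -0.26. STB3, a repressor of ribosome assembly genes, ITR1 and NGR1 rose by 0.30 ± 0.08, 0.29 ± 0.08 and 0.29 ± 0.08 (adjusted p = 0.0379, 0.0477 and 0.0411). These 3 rises did not pass with library totals (adjusted p = 0.0753, 0.0556 and 0.0667). Nor did they without the genes of chromosomes I, VIII and XI (0.0566, 0.0772 and 0.0556). With library totals 0 members rose and 4 fell, and without those chromosomes 0 rose and 1 fell. GEX2, MCH2 and NAM8 were among the genes left out with those chromosomes, so they could not be called there. STB3 did not pass without any 1 of the [RBS1-R3H] libraries or rpc128-1007[-] replicate 2 (adjusted p up to 0.146), nor did ITR1 without replicates 1 or 3 of rpc128-1007[-] or 1 or 2 of [RBS1-R3H] (up to 0.223), or NGR1 without any 1 of the rpc128-1007[-] libraries or [RBS1-R3H] replicates 1 or 2 (up to 0.145). YFL040W did not pass without [RBS1-R3H] replicates 2 or 3 or rpc128-1007[-] replicate 3 (up to 0.129), nor MCH2 without any 1 of the [RBS1-R3H] libraries or rpc128-1007[-] replicates 1 or 3 (up to 0.0870). With only the libraries of these 2 strains fitted no member passed, while 16 of 137 members had an unadjusted p under 0.05 in that edgeR fit (11.7%), against 19.8% of all 5779 genes tested there. DESeq2 and limma-voom, fitted to the 12 libraries, each called 8 members. The count of 7 was 1 without [RBS1-R3H] replicate 2, 2 without rpc128-1007[-] replicate 3, 3 without [RBS1-R3H] replicate 1 or [PRT1] replicate 2, and 4 without wt replicates 1 or 2, [RBS1-R3H] replicate 3 or [PRT1] replicate 3.

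Against wt, 8 members rose in [RBS1-R3H], beside 12% of all genes, and 10 fell, beside 10.9%, with medians of -0.03 for members and -0.04 for all. With library totals in place of TMM, 7 rose and 21 fell. CDA1 fell by 1.62 ± 0.35 (adjusted p = 0.00568), GEX2 by 1.48 ± 0.25 (adjusted p = 0.00106) and YFL040W by 1.31 ± 0.27 (adjusted p = 0.00356). These 3 passed under every alternative tried, though GEX2 was not in the fit that left out its chromosome, XI. The largest rises were those of REE1 (0.61 ± 0.19, adjusted p = 0.0324), SPC2, a subunit of signal peptidase (0.53 ± 0.10, adjusted p = 0.00169), and YBR238C, a mitochondrial membrane protein (0.46 ± 0.13, adjusted p = 0.0201). REE1 no longer passed without any 1 of wt replicates 1, 2 and 3 or [RBS1-R3H] replicates 2 and 3 (adjusted p up to 0.105), nor did YBR238C without wt replicates 1 or 3 or [RBS1-R3H] replicates 2 or 3 (up to 0.0643). Of the inositol genes, ITR1 rose by 0.34 ± 0.08 (adjusted p = 0.0123), while INO1 fell by 0.75 ± 0.20 (adjusted p = 0.0189). INO1 did not pass without [RBS1-R3H] replicates 1 or 2 or wt replicates 2 or 3 (up to 0.0837). The count of 18 members fell to 11 without [RBS1-R3H] replicate 2 or wt replicate 3.

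In [PRT1] against rpc128-1007[-], 9 members rose, beside 7.42% of all genes, and 5 fell, beside 13.9%, with medians of 0.06 for members and 0.01 for all genes. Outside chromosomes I, VIII and XI, 762 of 5142 genes were called, 218 of them higher, and 13 of 133 members. With library totals, 13 members rose and 4 fell. The 5 that fell were OPI3 (-1.04 ± 0.19, adjusted p = 0.00146), CHO1 (-0.62 ± 0.09, adjusted p = 0.000438), THI7 (-0.42 ± 0.10, adjusted p = 0.0108), ITR1 (-0.35 ± 0.08, adjusted p = 0.00957) and ACC1 (-0.31 ± 0.09, adjusted p = 0.0329). OPI3, CHO1, ITR1 and ACC1 belong to the phospholipid list, 9 of whose 24 genes fell and 2 rose, with a median of -0.21. THI7 did not pass without rpc128-1007[-] replicate 1 (0.0611), nor ACC1 without replicates 2 or 3 of either strain (up to 0.116), with library totals (0.0678) or with only the 2 strains fitted (0.0907). The largest rises were in DCV1, of unknown function (1.21 ± 0.34, adjusted p = 0.0241), YJL218W (1.02 ± 0.24, adjusted p = 0.00760) and TIR1 (0.78 ± 0.15, adjusted p = 0.00281). DCV1 did not pass without replicates 1 or 3 of rpc128-1007[-] or 1 or 2 of [PRT1] (up to 0.0966). Without [PRT1] replicate 1 or 2 the count of 14 fell to 9.

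Against wt, 2 members rose in [PRT1], beside 6.24% of all genes, and 6 fell, beside 5.49%, with medians of 0.00 and -0.03. Outside chromosomes I, VIII and XI, 417 of 5142 genes were called, 122 of them higher, and 7 of 133 members. With relative log expression (RLE) scaling, 5 members rose and 5 fell. NAM8 rose by 1.26 ± 0.12 (adjusted p = 1.44e-05), on chromosome VIII, where 235 of 290 tested genes rose with a median of 0.93. FEX2 rose by 0.49 ± 0.12 (adjusted p = 0.0165), but did not pass without wt replicates 2 or 3 or [PRT1] replicate 3 (up to 0.0788). SPR28 fell by 1.28 ± 0.25 (adjusted p = 0.00568), OPI3 by 1.22 ± 0.19 (adjusted p = 0.000775) and CHO1 by 0.67 ± 0.09 (adjusted p = 0.000392), and these passed under every alternative. THI7 fell by 0.42 ± 0.10 (adjusted p = 0.0222), ACC1 by 0.40 ± 0.09 (adjusted p = 0.0143) and ITR1 by 0.30 ± 0.08 (adjusted p = 0.0387). ACC1 did not pass without [PRT1] replicate 2 or wt replicate 3 (up to 0.0682), and ITR1 did not without any 1 of the 6 libraries of the 2 strains (up to 0.1197), with RLE scaling (0.0576), with all 15 libraries fitted (0.0514) or without the 3 chromosomes (0.0873). Of the phospholipid list 10 of 24 genes fell and 2 rose, with a median of -0.27. The 2 that rose were EPT1, a phosphotransferase (0.73 ± 0.09, adjusted p = 0.000128), and OPI1, the repressor of the Ino2 and Ino4 targets (0.88 ± 0.11, adjusted p = 0.000101), both on chromosome VIII. The part of OPI1 in the levels of CHO1, OPI3 and ITR1 was not tested. Here the numbers of the libraries were taken to pair them, and with the replicate as a block 15 members passed in place of 8. The changes and adjusted p printed for this comparison come from fits without the block. Without wt replicate 3 only 5 passed.

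The last comparison was rpc128-1007[-] against wt, the mutant with an empty vector against the complemented mutant. Here 5 members rose, beside 11.8% of all genes, and 6 fell, beside 6.26%. Outside chromosomes I, VIII and XI, 742 of 5142 genes were called, 378 of them higher, and 9 of 133 members. The medians were -0.07 for members and -0.01 for all genes. With library totals, 4 rose and 10 fell. YKR015C rose by 1.205 ± 0.29 (adjusted p = 0.0124), SPO74, of the meiotic spindle pole body, by 0.66 ± 0.21 (adjusted p = 0.0427), NAM8 by 0.60 ± 0.11 (adjusted p = 0.00374), SPC2 by 0.46 ± 0.10 (adjusted p = 0.00587) and FEX2 by 0.42 ± 0.11 (adjusted p = 0.0248). The median difference was 0.54 on chromosome XI, where 210 of 315 tested genes rose and YKR015C lies, and 0.21 on chromosome VIII, which holds NAM8. YKR015C did not pass without wt replicate 2 (0.0565), and SPO74 lost its call in 10 of 15 alternatives: without any 1 of the wt libraries or rpc128-1007[-] replicates 2 or 3 (up to 0.141), with library totals (0.0563), DESeq2 (0.0644), limma-voom (0.0564) or all 15 libraries (0.0578), and with only the 2 strains fitted (0.128). SPR28 fell by 0.89 ± 0.24 (adjusted p = 0.0232), YNR064C, an epoxide hydrolase, by 0.86 ± 0.27 (adjusted p = 0.0420) and TIR1 by 0.70 ± 0.15 (adjusted p = 0.00825), the last not with all 15 libraries fitted (0.0830). SPR28 did not pass without wt replicates 1 or 2 or rpc128-1007[-] replicate 3 (up to 0.0852), and YNR064C did not without any 1 of the 6 libraries of the 2 strains (up to 0.116) or without the 3 chromosomes (0.0649). With only the 2 strains fitted neither passed (0.0645 and 0.0711). Here too the numbers were taken to pair the libraries, and with the replicate as a block 22 members passed in place of 11. The changes and adjusted p printed here also come from fits without the block. With only the 2 strains fitted 5 passed, and without wt replicate 3 only 6.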

How the data were processed

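Poly(A) mRNA was sequenced from 5 strains, 3 libraries each. The authors aligned reads to the EF4 assembly with TopHat2 2.0.11, counted them per gene in R, and used DESeq2 1.24.0 for their own comparisons. The deposited table holds raw counts, not normalized; counting mode and strand are not given in the sources used here. Total counts were 7365923 to 12164321 per library.

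CPM was computed from library totals and is not corrected for gene length. The 4 strains other than [RBS1] were compared in R 4.3.3 with edgeR 4.0.16 (quasi-likelihood test, TMM scaling, filterByExpr, which kept 5834 of 6600 genes, and Benjamini-Hochberg adjustment at 0.05). limma 3.58.1 (voom) and DESeq2 1.42.0 were alternatives. Scripts were tested on simulated data. Positions and sequences come from RefSeq R64, matched by systematic name for 136 members, with upstream windows counted from the start codon.

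Residuals of same-numbered libraries correlated over 0.1 in every pair for rpc128-1007[-] against wt (0.157 to 0.252) and [PRT1] against wt (0.262 to 0.365), so the numbers were taken to pair them there. The main fit nevertheless used strain means only. The changes, adjusted p and shares given for those comparisons thus ignore the pairing, except the counts given with the replicate as a block.

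The members and gene lists were chosen with earlier results of these data known. Named were the 25 members with the highest ratio, members in a gene list, up to 3 called members with the largest change in each direction per comparison, and the 3 genes on each side of the ratio threshold. A single member is counted but not reported by name here. Other genes named were named after their values were seen. The p-values measure only the spread between these libraries.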

Additional observations from a re-analysis of the deposited data

How the results depend on the processing

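The number of members was 269 with a ratio of 1.2 and 43 with 1.5, against 137 with 1.3. It was 98 with TMM and 108 with median-ratio scaling, 119 with a minimum of 10 CPM, 171 with no minimum, and 129 to 194 with 1 library left out. Scaling by chromosome and leaving out the genes of chromosomes I, VIII and XI were chosen after seeing the data; the first gave 105 members.

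Members called in rpc128-1007[-] against wt were 11, but 5 with only those 2 strains fitted, 7 without the 3 chromosomes and 6 to 12 with a library left out. In [RBS1-R3H] against rpc128-1007[-] they were 7, but 4 with library totals (0 higher), 0 with only the 2 strains fitted (221 of all genes passed there), 1 without the 3 chromosomes (0 higher) and 1 to 7 with a library left out. In [RBS1-R3H] against wt they were 18, but 28 with library totals (7 higher, 21 lower) and 11 to 22 with a library left out. In [PRT1] against rpc128-1007[-] they were 14, and 9 to 15 with a library left out. In [PRT1] against wt they were 8, but 5 without the 3 chromosomes and 5 to 12 with a library left out. The causes were not tested. DESeq2 called 14, 8, 21, 16 and 11 members in these 5 comparisons and limma-voom 11, 8, 18, 15 and 9.

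When replicates entered as a block, the counts were 22, 12, 31, 20 and 15. In the other 3 comparisons 2 of 3 same-numbered pairs correlated over 0.1. The correlations ran from 0.0977 to 0.438 for [RBS1-R3H] against rpc128-1007[-] and from 0.0663 to 0.279 for [RBS1-R3H] against wt. For [PRT1] against rpc128-1007[-] they ran from -0.0320 to 0.553. Whether the numbers pair the libraries there is uncertain.

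Of 35 changes followed through the alternatives, 15 passed the threshold under every alternative, and none changed sign. The other changes named in the 5 comparisons were not followed in this way, so their dependence on the processing is not given. They were SPC2 and FEX2 in the empty-vector mutant against wt, and NAM8 in [RBS1-R3H] against the empty-vector mutant. In [PRT1] against wt they were THI7 and the genes EPT1 and OPI1, which were not members.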
